A study of Bos taurus with 8 samples.

Results

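The 10 genes described here encode the enzymes that shorten fatty acids inside mitochondria: ACADVL, ACADL, HADHA and HADHB for long chains, ACADM and ACAA2 for medium chains, ACADS and HADH for short chains, and ECI1 and DECR1 for unsaturated chains. A probe set was taken for a gene when that gene was its only symbol in the platform annotation, which found all 10 genes with 11 probe sets, out of 18010 named genes and 24415 probe sets. HADHA had 2 probe sets and each other gene had 1. The brightest probe set over the 8 arrays stood for its gene, and both are given for HADHA. The classes follow the textbook chain-length preference of each enzyme, and HADH acts on medium as well as short chains.

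RNA came from primary granulosa cells of cattle, which line the ovarian follicle and nourish the oocyte. Both groups were cultured without serum in alpha-MEM that held FSH, IGF-1 and androstenedione. On day 2 and again on day 4 the cells received fresh medium with either bovine serum albumin (BSA; n = 4 arrays) or a NEFA mix, that is, fatty acids not bound in esters (n = 4 arrays), and they were analysed on day 6. The comparison asks how transcript levels differ under free fatty acids, and the sources used here give neither the make-up and dose of the mix nor the breed, age or number of the donor animals.

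Long-chain fatty acids enter the mitochondrial matrix as acyl-carnitines, while shorter ones can largely enter without carnitine, and inside they are shortened in a repeating cycle of dehydrogenation, hydration, a second dehydrogenation and thiolysis, each turn releasing acetyl-CoA. Enzymes of the inner membrane (ACADVL and the trifunctional protein made of HADHA and HADHB) handle long chains, and soluble matrix enzymes take over as the chain becomes shorter. Double bonds in natural fatty acids need auxiliary enzymes, among them ECI1 and DECR1. Several genes of the pathway are known targets of the fatty acid receptors of the PPAR family.

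Values are RMA levels on the log2 scale, given per array in the order of replicates 1 to 4, and a change is the NEFA mean minus the BSA mean on that scale with the standard error (SE) of limma. A gene is said to have risen or fallen where its limma p-value, after Benjamini-Hochberg adjustment across every probe set, was under 0.05. Nothing in the labels tells whether replicates came from different animals or cultures. The p-values therefore reflect just the variation among these 8 samples, part or all of which may be technical. In bulk RNA, a changed level per cell and a changed share of the cells that express a gene cannot be told apart.

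The arrays were alike in distribution, with medians from 4.78 to 4.86, and no pair of arrays within a group shared more than 2.78% of its values exactly. The granulosa label was checked on 8 marker genes, whose mean level was 8.40 to 8.56 on the BSA arrays and 8.46 to 8.72 on the NEFA arrays. INHBA, an activin subunit, was at 11.59 and 11.64, and the FSH receptor gene FSHR at 7.48 and 7.65. The mean level of 5 leukocyte markers was 3.53 to 3.59 with BSA and 3.51 to 3.78 with NEFA, that of 4 endothelial markers 3.75 to 3.93 and 3.62 to 3.87, and that of 4 oocyte markers 2.64 to 2.79 and 2.79 to 3.06. For 4 markers of smooth muscle and stroma the mean was 6.08 to 6.20 with BSA and 6.21 to 6.54 with NEFA, and for 3 theca markers it was 4.44 to 4.64 and 4.58 to 5.02. These means hide unlike levels. The theca marker INSL3 was at 7.87 with BSA and 8.09 with NEFA, CYP17A1 at 3.11 and 3.43, and LHCGR at 2.70 and 2.73. INSL3 read above FSHR, but levels of different probe sets are not on one scale, so their transcript amounts cannot be ranked. PDGFRA of the stroma list was at 8.76 and 8.46, and AMH of the granulosa list at 5.615 and 5.47. Of all 28 measured markers, GATM of the granulosa list rose by 0.36, VWF of endothelium fell by 0.35 and PDGFRA of stroma fell by 0.30 (limma). The other 3 smooth muscle and stroma markers had higher values that did not pass (limma): MYH11 by 0.42, TAGLN by 0.37 and DES by 0.34. The aromatase gene CYP19A1 had the largest marker change, 0.51, which likewise missed the threshold (adjusted p = 0.167, limma). The part of these shifts in the results below was not tested. RMA levels have no true zero, so no marker can be called absent.

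With NEFA, the trifunctional protein genes HADHA and HADHB rose 1.67-fold and 1.61-fold, and the other 8 of the 10 genes did not pass the threshold. Over all genes 2.35% passed (2.03% of all probe sets), and 0.999% passed as higher. None of the 10 fell. The median change of the 10 genes was 0.07, against 0.005 over all genes. Groups did not overlap for 6 of the 10 genes (HADHA, HADHB, ACADM, DECR1 and ACADVL with higher and ECI1 with lower NEFA values), against 12.4% of all genes. At an unadjusted p under 0.05 the count was 5 of 10, against 16.8% of all genes. These shares describe genes that were picked with results of these data known, and they are not independent evidence.

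**Figure D1:**
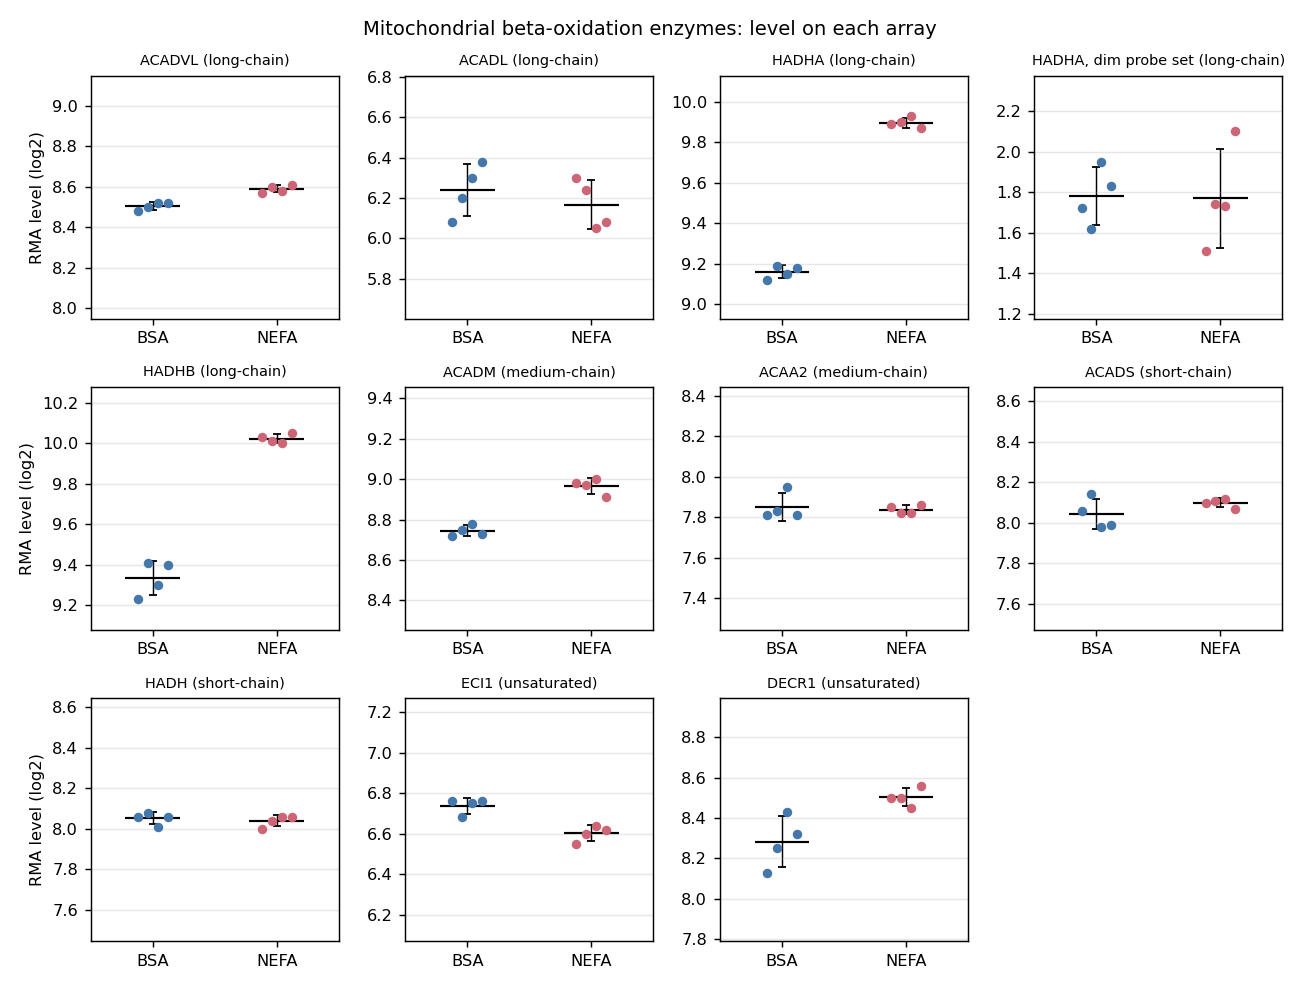
Level of each enzyme gene on each array (RMA, log2; every panel spans 1.2 log2 units), with BSA arrays in blue, NEFA arrays in red, the group mean as a horizontal bar and the SD (n = 4) as an error bar. The 4 NEFA arrays of HADHA lie between 9.87 and 9.93, above the BSA arrays at 9.12 to 9.19, and those of HADHB between 10 and 10.05, above 9.23 to 9.41, while the groups of HADH and ACAA2 lie at the same height.

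Among the long-chain enzymes, HADHA encodes the alpha subunit of the trifunctional protein, which hydrates long-chain enoyl-CoA and carries out the second dehydrogenation. Its bright probe set (12698515) read 9.12, 9.19, 9.15 and 9.18 on the BSA arrays and 9.89, 9.90, 9.93 and 9.87 on the NEFA arrays. Every NEFA array lay above every BSA array, and the gap between the groups, 0.68, was far wider than the range within either. The change was 0.74 (SE 0.05; 9.16 ± 0.03 to 9.90 ± 0.03, SD, n = 4; limma, adjusted p = 3.48e-04).

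The second HADHA probe set (12870043) was dim, in the lowest 5.10% of probe sets by mean level. It read 1.72, 1.62, 1.95 and 1.83 with BSA and 1.51, 1.74, 1.73 and 2.10 with NEFA. The groups overlapped fully, with the lowest and the highest value both among the NEFA arrays. Its change was -0.01 (95% interval -0.30 to 0.28; limma, adjusted p = 0.981), so at this level neither a rise nor a fall was measured. Averaging both probe sets gave HADHA a change of 0.36, which still passed (limma, adjusted p = 0.0413).

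HADHB encodes the beta subunit, the long-chain thiolase that ends the turn. It read 9.23, 9.41, 9.30 and 9.40 with BSA and 10.03, 10.01, 10 and 10.05 with NEFA. The groups were separated by 0.59, and the NEFA arrays spanned 0.05 where the BSA arrays spanned 0.18. The change was 0.69 (SE 0.06; 9.34 ± 0.09 to 10.02 ± 0.02, SD, n = 4; limma, adjusted p = 9.40e-04). HADHA and HADHB stayed past the threshold in each of the 15 alternative analyses, including those without any one array.

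ACADVL, the very-long-chain acyl-CoA dehydrogenase, performs the first dehydrogenation just before the trifunctional protein. It read 8.48, 8.5, 8.52 and 8.52 with BSA and 8.57, 8.60, 8.58 and 8.61 with NEFA. All NEFA arrays were above all BSA arrays, but by a gap of only 0.05. The change of 0.09 did not pass (limma, adjusted p = 0.394; 95% interval -0.01 to 0.19), and the upper end of that interval lies below the lower ends for HADHA (0.63) and HADHB (0.56).

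ACADL, the long-chain acyl-CoA dehydrogenase, has a part in fat oxidation that is best known from the mouse. It read 6.08, 6.20, 6.30 and 6.38 with BSA and 6.30, 6.24, 6.05 and 6.08 with NEFA. The groups overlapped, with 1 NEFA array below every BSA array and 1 BSA array above every NEFA array. The change was -0.07 (SE 0.09; 95% interval -0.27 to 0.12; limma, adjusted p = 0.734), and among the chosen probe sets ACADL had the widest interval. Of the 4 long-chain genes, therefore, 2 rose and 2 did not pass.

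For medium chains, ACADM encodes the medium-chain acyl-CoA dehydrogenase, the enzyme lacking in the commonest inherited defect of human fat oxidation. It read 8.72, 8.75, 8.78 and 8.73 with BSA and 8.98, 8.97, 9 and 8.91 with NEFA. The groups were separated by 0.13 without overlap. The change of 0.22 (SE 0.05; 8.74 ± 0.03 to 8.96 ± 0.04, SD, n = 4; 95% interval 0.11 to 0.33) missed the threshold (limma, adjusted p = 0.0562). Apart from the replicate block there were 14 alternatives, and ACADM passed in 3 of them: with a further quantile normalization (adjusted p = 0.0393), without the dimmest 33.4% of probe sets (0.0194), and with trend and robust eBayes (0.00162). Over those 14 the adjusted p ran up to 0.145 (limma, without NEFA 3).

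ACAA2 encodes a soluble thiolase of the matrix that acts on medium and shorter chains. It read 7.81, 7.83, 7.95 and 7.81 with BSA and 7.85, 7.82, 7.82 and 7.86 with NEFA. The groups overlapped, and BSA 3 was the highest array. The change was -0.01 (95% interval -0.13 to 0.11; limma, adjusted p = 0.936).

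For short chains, ACADS encodes the short-chain acyl-CoA dehydrogenase, which acts on butyryl-CoA. It read 8.06, 8.14, 7.98 and 7.99 with BSA and 8.10, 8.11, 8.12 and 8.07 with NEFA. The NEFA values all lay inside the BSA range. The change was 0.06 (95% interval -0.06 to 0.18; limma, adjusted p = 0.653).

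HADH encodes the soluble dehydrogenase of medium- and short-chain hydroxyacyl-CoA. It read 8.06, 8.08, 8.01 and 8.06 with BSA and 8, 8.04, 8.06 and 8.06 with NEFA. The groups overlapped, with 1 NEFA array below every BSA array. The change was -0.01 (95% interval -0.12 to 0.09; limma, adjusted p = 0.927). The signs of the HADH and ACAA2 values turned with a further quantile normalization, to 0.01 for each.

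The auxiliary enzymes of unsaturated chains had changes of opposite sign, and neither passed. DECR1, the dienoyl-CoA reductase, read 8.13, 8.25, 8.43 and 8.32 with BSA and 8.5, 8.5, 8.45 and 8.56 with NEFA. All NEFA arrays were higher, by as little as 0.02 over BSA 3. The change was 0.22 (SE 0.07; 95% interval 0.06 to 0.38; limma, adjusted p = 0.170), and it passed with trend and robust eBayes alone (adjusted p = 0.0335, in a range up to 0.311). ECI1, the enoyl-CoA isomerase that moves a double bond into the position the cycle needs, read 6.76, 6.68, 6.75 and 6.76 with BSA and 6.55, 6.60, 6.64 and 6.62 with NEFA. Here all NEFA arrays were lower, by at least 0.04. The change was -0.13 (SE 0.05; 95% interval -0.25 to -0.03; limma, adjusted p = 0.218), and it passed in none of the 14 alternatives other than the block (adjusted p from 0.109 to 0.363).

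To compare chain lengths at the same reaction, the level of one enzyme was subtracted from that of its counterpart within each array, for 7 pairs, and the differences were compared between the groups by a two-sided exact permutation test over the arrays. The pairs of HADHA and HADHB were picked with the rise of those genes known and restate it, so they are given as a description with no p. With 4 arrays against 4 the smallest possible p is 0.0286, and with Benjamini-Hochberg adjustment over all 7 pairs a pair at that p has an adjusted p of 0.04 here. The 97.1% interval given with each pair runs from the lowest to the highest of the 16 differences between a NEFA and a BSA array, which are the shifts this test does not reject. Because levels of different probe sets are not on one scale, only the change of a pair's difference is used. Probe sets can also differ in how much of a change they show, and the part of this in the pairs was not tested.

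At the second dehydrogenation, HADHA gained 0.75 on HADH with NEFA (interval 0.67 to 0.83). The within-array difference was 1.06, 1.11, 1.14 and 1.12 with BSA and 1.89, 1.86, 1.87 and 1.81 with NEFA. At thiolysis, HADHB gained 0.70 on ACAA2 (interval 0.59 to 0.84). That difference was 1.42, 1.58, 1.35 and 1.59 with BSA and 2.18, 2.19, 2.18 and 2.19 with NEFA. At both reactions the long-chain gene rose while the mean of its soluble counterpart changed by -0.01. With the mean of both HADHA probe sets the gain of HADHA on HADH was 0.38.

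At the first dehydrogenation the values had another order, with the medium-chain ACADM gaining on its counterparts in both directions of chain length. The 3 pairs with ACADM share that gene, whose own change of 0.22 missed the threshold (limma, adjusted p = 0.0562). They are not independent of each other, and they too were picked with earlier results of these data known. ACADVL lost 0.13 against ACADM (-0.135, interval -0.21 to -0.04) and ACADL changed by -0.29 against ACADM (interval -0.60 to -0.04), each with adjusted p = 0.04 by exact permutation. ACADM gained 0.16 on the short-chain ACADS (interval 0.04 to 0.27; exact permutation, adjusted p = 0.04). ACADVL against ACADS changed by 0.03 (interval -0.08 to 0.18; exact permutation, adjusted p = 0.657) and ACADVL against ACADL by 0.16 (interval -0.13 to 0.39; adjusted p = 0.167), so neither of those pairs was shown to differ. Adjusted over the 5 dehydrogenation pairs alone, which was added after seeing the data, the 3 pairs with ACADM had an adjusted p of 0.0476 (exact permutation). At least 5 of the 7 pairs must reach the smallest p for any to pass, so the value of 0.04 rests on counting the HADHA and HADHB pairs. With any 1 array left out no pair passed (adjusted p from 0.05 to 0.08 for the 3 pairs, exact permutation). The p-values of the 3 pairs are therefore no independent evidence for an order by chain length.

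**Figure D2:**
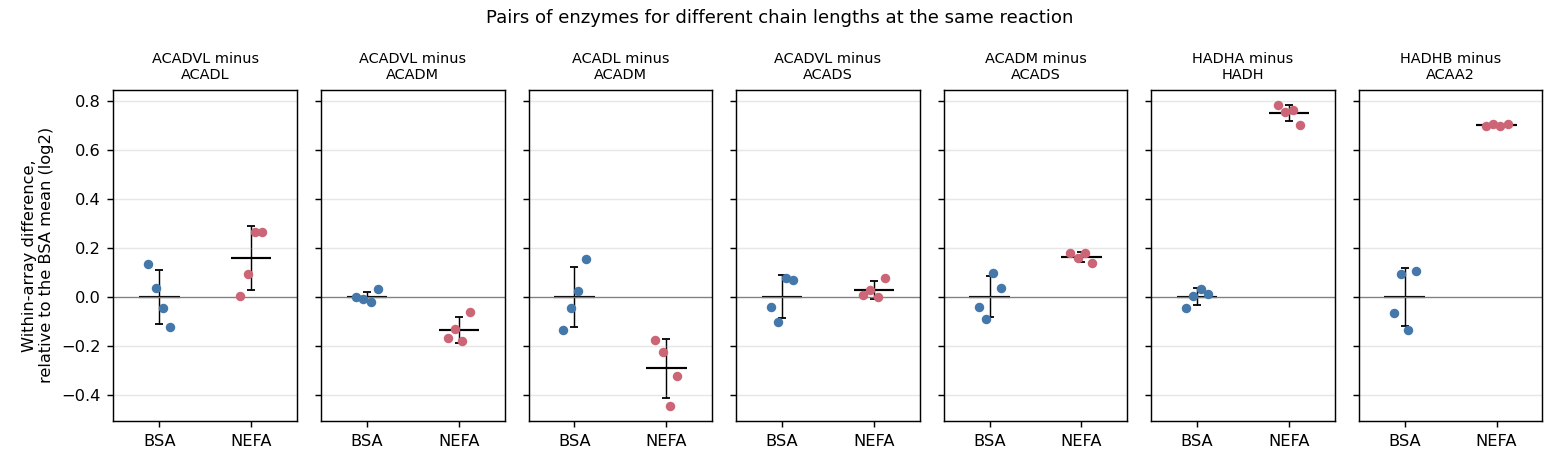
Within-array difference between paired enzymes (log2, relative to the mean of the BSA arrays), with BSA arrays in blue, NEFA arrays in red, group means as bars and SD (n = 4) as error bars. The HADHA and HADHB pairs move up by 0.75 and 0.70 without overlap, the pairs with ACADM move by 0.13 to 0.29 in size, and the groups of the other 2 pairs overlap.

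The other genes of fatty acid oxidation were read from a list with 24 measured members. Past the threshold, 3 were higher and 1 was lower, the other 20 missed it, and the median over the 24 was 0.02 (over all genes 0.999% passed as higher and 1.35% as lower). All 3 that rose belong to the carnitine shuttle, which brings long-chain acyl groups into the matrix. CPT1A and CPT1B, the isoforms of the outer carnitine palmitoyltransferase, rose by 1.11 and 1.17, and the carnitine-acylcarnitine carrier SLC25A20 rose by 0.75 (limma, adjusted p = 8.34e-05, 5.68e-04 and 5.73e-04). SLC22A5, which imports carnitine into the cell, changed by 0.26 and did not pass (limma, adjusted p = 0.116), and CPT2, the inner transferase, changed by -0.07 (adjusted p = 0.611).

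None of the 8 other matrix enzymes passed, with changes from -0.13 to 0.20 (limma, 4 of 8 at an unadjusted p under 0.05, against 16.8% of all genes). They include ECHS1, the short-chain enoyl-CoA hydratase, at -0.11, and ACAT1, the thiolase of acetoacetyl-CoA, at 0.10. ECH1, an auxiliary isomerase, changed by 0.20 (adjusted p = 0.0761). The electron transfer genes that serve the acyl-CoA dehydrogenases, ETFA, ETFB and ETFDH, changed by -0.09, 0.14 and 0.04, and none passed.

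The gene that fell was MMUT, the methylmalonyl-CoA mutase, which works on propionate from odd-numbered chains and branched amino acids. It read 7.95, 8.04, 7.95 and 7.94 with BSA and 7.59, 7.51, 7.44 and 7.44 with NEFA. The groups were separated by 0.35, with all NEFA arrays lower. The change was -0.475 (SE 0.06; limma, adjusted p = 0.00512). MMUT passed in all 14 alternatives other than the replicate block, and did not pass with the block. The other 3 genes of that branch (PCCA, PCCB and MCEE) had lower values, from -0.14 to -0.06, and did not pass. Of 4 measured peroxisomal genes none passed, and the one with the smallest p was HSD17B4, the D-bifunctional protein, at 0.25 (limma, adjusted p = 0.0527). Block aside, 4 of 14 alternatives called it, with adjusted p from 0.00210 to 0.138.

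**Figure D3:**
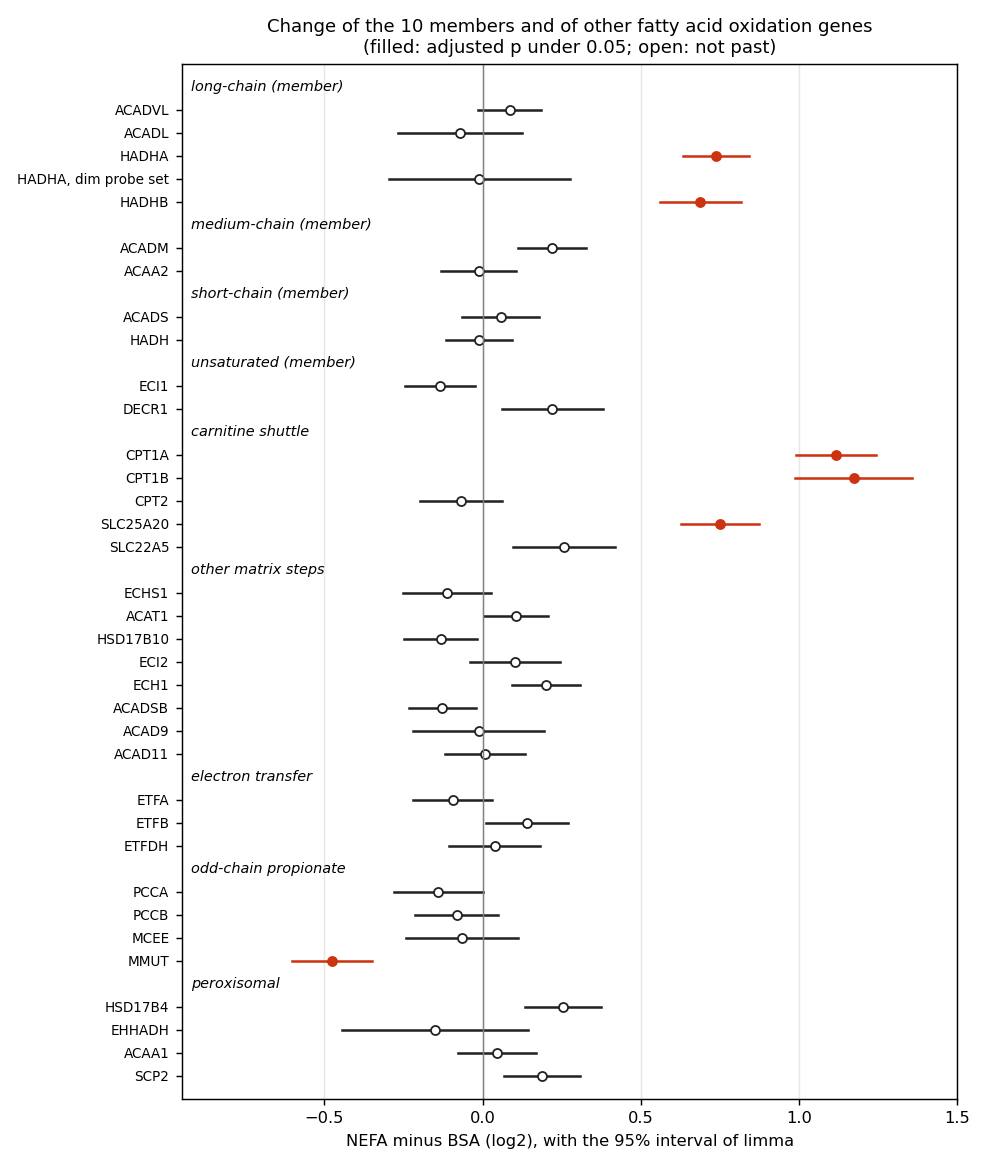
Change with NEFA (NEFA minus BSA, log2) of the 10 enzyme genes, of the dim HADHA probe set and of 24 other fatty acid oxidation genes, with the 95% interval of limma. Filled red points passed at an adjusted p under 0.05: HADHA, HADHB, CPT1A, CPT1B and SLC25A20 to the right of 0, and MMUT to the left.

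The genes most like HADHA were sought over the 8 arrays by the root mean square distance between profiles centred on their own mean, among all named genes. The nearest were SLC25A20 (distance 0.05 on the log2 scale), HADHB (0.05), MS4A8 (0.06), SLC27A1 (0.07) and ARRDC3 (0.07). Nearest to HADHB were ARRDC3 (0.04), HADHA (0.05), SLC25A20 (0.07), FBXO32 (0.08) and SLC27A1 (0.08). SLC27A1 is a fatty acid transport protein, ARRDC3 an arrestin-domain protein and FBXO32 a ubiquitin ligase subunit. HADHA and HADHB were thus each the second nearest gene to the other among 18010, while the next enzyme of the 10, ACADM, ranked 541 for HADHA and 521 for HADHB. With 2 groups of arrays such a distance is set largely by the size of the change, which was 0.58 to 0.77 for HADHA, HADHB and the nearest genes named here, and 0.22 for ACADM.

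HADHA and HADHB are neighbours in the RefSeq gene order of the assembly ARS-UCD2.0, with 0 annotated genes between them. Of the 6 genes listed on either side of the pair, 7 of 12 were measured, and 0 of 7 passed (limma, against 2.35% of all genes), with 1 at an unadjusted p under 0.05 (against 16.8%). The directly adjoining ADGRF3 and GAREM2 changed by 0.04 and 0.36 (limma, adjusted p = 0.892 and 0.186), and RAB10 changed by -0.10. The neighbours were not part of the rule for naming genes.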

How the data were processed

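The authors deposited log2 levels per probe set, and the submitters' processing notes name RMA as the method. This method removes background, makes array distributions alike and merges the probes of a set, so a shift common to all transcripts is hidden and changes of dim probe sets come out too small. The sources used here name no software version and no genome build. Arrays give no read depth, and their number limits the precision.

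Of 24415 probe sets, 18457 had 1 gene symbol in the platform annotation, 688 several and 5270 none. Symbols were updated through the RefSeq gene table (17996 matched). Samples were grouped by title, and NEFA was compared with BSA in R 4.3.3 with limma 3.58.1 (lmFit, eBayes) without further normalization. Benjamini-Hochberg adjustment ran over all probe sets, of which 495 (2.03%) passed at 0.05. In simulated data for this comparison, limma was run on 24415 probe sets with 50 planted changes of each size. It recovered 1 of 50 changes of 0.25, 25 of 50 of 0.5, 41 of 50 of 1 and 49 of 50 of 2. Of 122 calls, 6 were false. The simulated data thus had fewer calls than the 495 above, and recovery with as many changes as in the real data was not tested.

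The members, lists and pairs were chosen with earlier results of these data known. All 10 members were named, as were listed pathway genes past the threshold with the 3 next by p, and the 5 nearest profiles to HADHA and to HADHB. The other genes named with values (CPT2, ECHS1, ACAT1, ETFA, ETFB, ETFDH, the markers and the neighbours) were chosen after their values were seen. STAR and ACTA2 of the markers had no probe set of their own symbol alone and were not analysed here. The alternatives changed the normalization (quantile again, or array medians set equal), the filter (without the dimmest 33.4% of probe sets), the model (replicate number as a block, trend and robust eBayes, array weights), the summary (a gene's probe sets averaged) or the arrays (each left out in turn).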

Additional observations from a re-analysis of the deposited data

Results flagged for a closer look

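Of 44 groups of 4 arrays checked for the genes named by the rule, 4 held an array far from the other 3, where chance gives about 1 in 20. For ACAA2, BSA 3 read 7.95 against 7.81 to 7.83 on the other BSA arrays, and without it the change was 0.02 instead of -0.01. ECI1 on BSA 2 read 6.68, below the other BSA arrays, and the change without it was -0.15. MMUT on BSA 2 read 8.04, above 7.94 to 7.95, and without it the change was -0.45 (limma, adjusted p = 0.0209). FBXO32 on NEFA 2 read 7.58, above 7.51 to 7.52.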

How the results depend on the processing

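HADHA and HADHB were the 2 called members in the main analysis and passed in all 15 alternatives. The number of called members became 3 with a further quantile normalization and without the dimmest 33.4% (ACADM added), and 4 with trend and robust eBayes (ACADM and DECR1 added). Called pathway genes went from 4 to 8 with trend and robust eBayes, and called probe sets from 495 to 905 without the dimmest 33.4%, to 1268 with trend and robust eBayes, and to 195 to 307 without any 1 array. The filter tests fewer probe sets and also refits the model on those kept, and the left-out array lowers the sample number. What caused any of these shifts was not tested. Array median centring kept the same 2 members but gave 155 probe sets higher and 347 lower, against 217 and 278.

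Signs turned only for values near 0: ACAA2 (0.0122) and HADH (0.0117) with a further quantile normalization, ACAD11 (-0.0275) with centring, and, without 1 array, ACAA2 (-0.0258 to 0.0208), HADH (-0.0267 to 0.0008), ACAD9 (-0.0717 to 0.065), ACAD11 (-0.025 to 0.0383) and the pair ACADVL and ACADS (-0.0067 to 0.0533). The called pairs numbered 5 as deposited, with a further quantile normalization and with probe sets averaged, 3 when adjusted without the HADHA and HADHB pairs (added after seeing the data), and 0 without any 1 array, where too few pairs reach the smallest p.

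Same-numbered arrays of the 2 groups deviated together with correlations from -0.01 to 0.07, against -0.097 to 0.056 for differently numbered arrays. With values this small the numbers were not taken to pair the arrays. Whether same-numbered arrays share an animal or culture is not given by the labels and was not tested. With the replicate block, 89 probe sets, 2 members (HADHA, adjusted p = 0.0196) and 3 pathway genes passed, MMUT losing its call (limma, adjusted p = 0.0565), and 0 pairs passed, since 4 numbered pairs allow no exact p under 0.125.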
